A study of Mus musculus with 12 samples.

Results

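A set of 9 enzymes that make serine and move its one-carbon unit through folate was followed in mouse liver: Phgdh, Psat1, Psph, Shmt1, Shmt2, Mthfd1, Mthfd1l, Mthfd2 and Aldh1l2. They were picked out by gene symbol, with earlier results of these data known, and all 9 were among the 24411 genes of the count table. The livers came from 3-month-old mice of 3 genotypes with 3 mice each. The cont. mice were Atg7 flox/flox without Cre. The Atg7-KO mice were Atg7 flox/flox;Alb-Cre, in which the albumin promoter drives Cre mainly in hepatocytes, so that Atg7, needed for autophagy, is deleted there while most other cells of the liver keep it. The Atg7-KO;p62 T352A mice, called double mutants from here on, carried the same alleles and were homozygous for p62 T352A, a threonine-to-alanine knock-in in the KEAP1-binding region of p62, the autophagy receptor encoded by Sqstm1. All 3 genotypes therefore shared the homozygous floxed Atg7 allele. Livers with p62 T352A alone were not analysed here, so the knock-in was compared on the Atg7-KO background only.

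In the cytosol, PHGDH, PSAT1 and PSPH turn the glycolytic intermediate 3-phosphoglycerate into serine in successive steps. Serine hydroxymethyltransferases, SHMT1 in the cytosol and SHMT2 in mitochondria, pass a carbon from serine to tetrahydrofolate and leave glycine. In mitochondria MTHFD2, MTHFD1L and ALDH1L2 oxidize that carbon to formate or carbon dioxide, and in the cytosol the trifunctional MTHFD1 takes formate back into folate for purines, thymidylate and methionine. Adult liver is known for abundant SHMT and MTHFD1 activity and for breaking serine down to pyruvate, whereas PHGDH and MTHFD2 are best known from proliferating cells. Both ATF4, a factor of the amino acid stress response, and NRF2, which is released when p62 binds KEAP1, are known to raise serine synthesis genes in other cell types.

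The sequences just before the gene start are shown because both factors act through short promoter elements. Phgdh is shown as the member whose window held a match before the start, and Mthfd1l and Shmt2 as the members with the largest rise and the largest fall in Atg7-KO, all picked with these results known. They are RefSeq windows of 250 bases on GRCm38.p6, written in the direction of the gene, at chr3:98339970-98340219 on the minus strand for Phgdh, chr10:3972825-3973074 on the plus strand for Mthfd1l and chr10:127522445-127522694 on the minus strand for Shmt2. Capitals mark the only motif letters found in them.
Phgdh: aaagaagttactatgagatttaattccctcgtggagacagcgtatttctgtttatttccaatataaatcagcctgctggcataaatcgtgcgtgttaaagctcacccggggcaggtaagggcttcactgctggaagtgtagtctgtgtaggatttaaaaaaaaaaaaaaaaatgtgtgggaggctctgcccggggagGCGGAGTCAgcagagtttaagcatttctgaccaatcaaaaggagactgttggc
Mthfd1l: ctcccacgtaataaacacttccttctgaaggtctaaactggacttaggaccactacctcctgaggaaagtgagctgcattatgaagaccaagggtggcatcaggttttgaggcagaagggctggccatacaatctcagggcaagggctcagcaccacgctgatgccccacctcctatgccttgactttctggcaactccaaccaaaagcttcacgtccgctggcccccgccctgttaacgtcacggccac
Shmt2: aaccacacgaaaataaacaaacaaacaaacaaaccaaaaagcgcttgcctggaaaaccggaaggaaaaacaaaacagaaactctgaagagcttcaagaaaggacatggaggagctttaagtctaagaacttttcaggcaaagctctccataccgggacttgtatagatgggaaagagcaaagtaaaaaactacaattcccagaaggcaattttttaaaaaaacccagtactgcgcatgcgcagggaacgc
Of the 9 members, 8 had an entry, with 9 windows in all, and Aldh1l2 had none. On both strands from 250 bases before to 50 bases after the start, the letters TGACNNNGC, an NRF2-type element, occurred in Phgdh as TGACTCCGC on the strand opposite to the gene, 53 to 45 bases before the start. They also occurred in Psph, as TGACGTCGC on the opposite strand, 4 to 12 bases after the start. The ATF4-type letters TGATGNAA and the E-box CACGTG were in none of the 9 windows. Of 32851 promoters of that length, 12.4% held the NRF2-type letters, 3.97% the ATF4-type letters and 7.15% the E-box.

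Total counts were 9671073 to 23285134 in the cont. livers, 16157275 to 18480541 in Atg7-KO and 16133626 to 17357183 in double mutants. Atg7 itself was at 46.4, 44.2 and 55.4 normalized CPM (counts divided by the TMM-scaled library size) in cont., at 10.1, 9.57 and 12.0 in Atg7-KO and at 29.7, 27.4 and 29.5 in double mutants. The 3 genotypes did not overlap, and the double mutant livers kept more Atg7 reads than the Atg7-KO livers (log2 fold change 1.45, SE 0.17, edgeR adjusted p = 0.000164). Double mutants and Atg7-KO thus differed in Atg7 reads as well as in p62, and the part of this in other values was not tested. Counts of a whole gene include exons outside the floxed part, so they check the labels only in part. The mice numbered 1 of each genotype stood apart from the other 6 in Xist, with counts of 7 to 28 against 8578 to 18335, and the labels used here give no sex. Of the cont. livers, mouse 1 was the deepest and had a TMM factor of 0.75, against 0.95 and 0.94 for mice 2 and 3.

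Unless another scale is named, fold changes were fitted with TMM scaling, which takes the bulk of genes as unchanged. A gene was called changed at a fold change over 1.5 with an adjusted p under 0.05. The TMM factors were 1.28 to 1.32 in Atg7-KO but 0.75 to 0.95 in cont. and 0.82 to 0.95 in double mutants. When libraries were scaled by total counts alone, the median of all tested genes moved from -0.03 to 0.55 (log2) for Atg7-KO against cont. and from 0.00 to -0.57 for double mutants against Atg7-KO. Under total counts, Atg7-KO against cont. had 42.6% of all tested genes past the threshold as higher and 7.92% as lower, and double mutants against Atg7-KO had 9.64% and 44.1%. Member values depended on this choice, and calls changed with it for the abundant Shmt1, Shmt2 and Mthfd1 and for the low Mthfd2.

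In Atg7-KO livers the 3 serine synthesis genes and the mitochondrial folate genes Mthfd1l and Mthfd2 rose from low levels, and the abundant Shmt2 and Mthfd1 fell. Of the 8 members tested, 5 were called higher and 2 lower than in cont., where 21.6% of the 13922 genes tested were called higher and 22.1% lower. Among the 5, Phgdh and Psat1 passed the filter on low counts only through the Atg7-KO livers, so their calls are no independent support. Under total counts 5 were called higher and 0 lower, beside 42.6% and 7.92% of all genes. In double mutant livers, Phgdh, Psat1, Psph and Mthfd1l were lower than in Atg7-KO and Shmt2 was higher, which made 4 members called lower and 1 higher beside 26.2% and 24.7% of all genes. Under total counts 6 were called lower, with Shmt1 and Mthfd2 added, and 1 higher, beside 44.1% and 9.64% of all genes. Against cont., edgeR called 0 of the 8 members in double mutant livers, while it called 6.25% of all genes higher and 5.34% lower. In that comparison 1 member, Shmt1, had an unadjusted p under 0.05, and DESeq2 called the same gene lower. The livers did not overlap for 5 members higher and 3 lower in Atg7-KO against cont. (29.2% and 26.3% of all genes), for 2 higher and 4 lower in double mutants against Atg7-KO (36.4% and 36.8%) and for 0 members in double mutants against cont. (15.5% higher and 11.2% lower). The comparisons with Atg7-KO share the Atg7-KO mice, so their values are not independent.

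**Figure D1:**
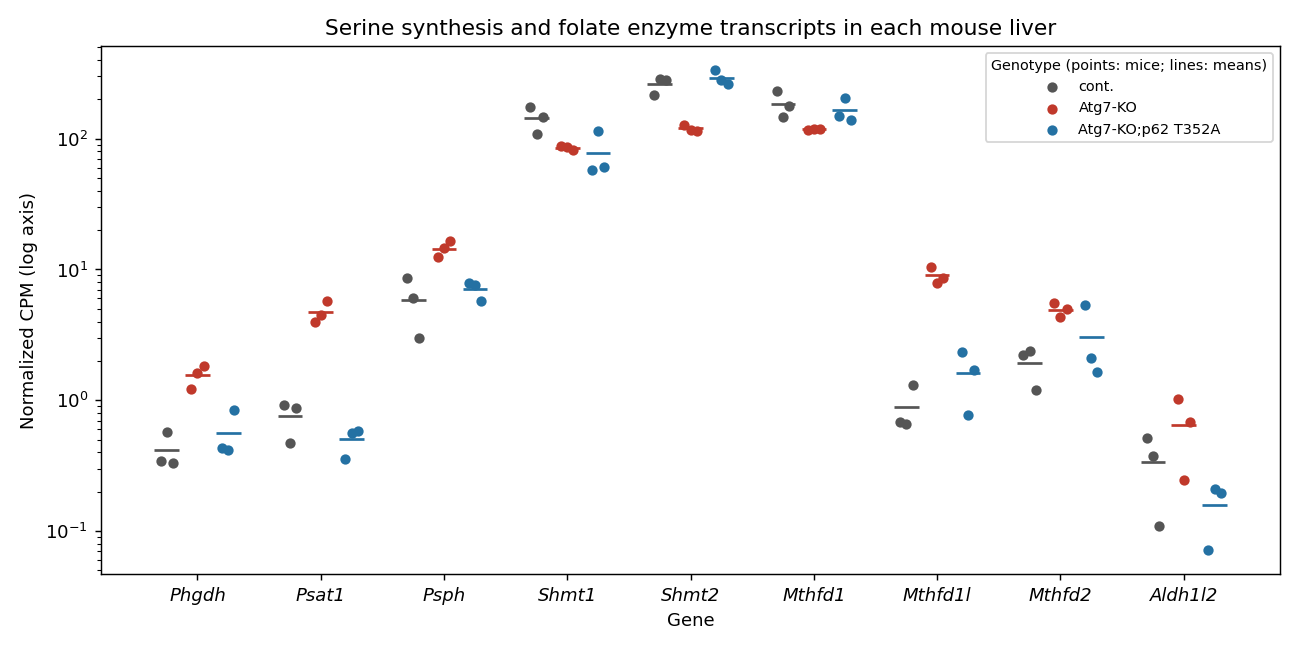
Normalized CPM (vertical log axis) of the 9 genes (horizontal axis) in each mouse liver; points are mice, short lines are the means of 3 mice per genotype. The Atg7-KO points lie above both other genotypes for Phgdh, Psat1, Psph and Mthfd1l and below both for Shmt2 and Mthfd1.

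Phgdh, on chromosome 3 at 98313170 to 98339990 (mm10, minus strand), encodes the first and committing enzyme of serine synthesis. Its counts were 6, 6 and 3 in cont., 25, 39 and 43 in Atg7-KO and 6, 6 and 13 in double mutants. As normalized CPM this was 0.414 ± 0.133 in cont., 1.55 ± 0.316 in Atg7-KO and 0.566 ± 0.245 in double mutants (mean ± SD, n = 3). All 3 Atg7-KO livers were above the other 6, and the other genotypes overlapped. Phgdh was 3.75-fold above cont. in Atg7-KO (log2 fold change 1.91, SE 0.42, edgeR adjusted p = 0.0050) and fell by 1.43 on the log2 scale in double mutants against Atg7-KO (SE 0.38, edgeR adjusted p = 0.0112). Without Atg7-KO mouse 3 the latter adjusted p was 0.0501. The counts are small, and 35.8% of the 75-base stretches of its transcripts also occur in transcripts of 13 other genes, most often Gm7901, so that its reads cannot all be assigned with certainty.

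Psat1, on chromosome 19 at 15904678 to 15947337 (minus strand), encodes the aminotransferase of the second step, which takes its amino group from glutamate. It had counts of 16, 5 and 8 in cont., 82, 109 and 134 in Atg7-KO and 5, 8 and 9 in double mutants. The Atg7-KO livers were again the 3 highest, without overlap. Its normalized CPM rose from 0.756 ± 0.246 to 4.72 ± 0.900 (log2 fold change 2.61, SE 0.33, edgeR adjusted p = 0.000295) and stood at 0.502 ± 0.126 in double mutants, 9.26-fold lower than in Atg7-KO (log2 fold change -3.21, SE 0.34, edgeR adjusted p = 0.000118). No 75-base stretch of Psat1 was shared with another gene.

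Psph, on chromosome 5 at 129765558 to 129787449 (minus strand), encodes the phosphatase that releases serine. Counts were 151, 64 and 27 in cont., 256, 353 and 384 in Atg7-KO and 110, 108 and 88 in double mutants. Normalized CPM was 5.89 ± 2.85 in cont., 14.4 ± 2.00 in Atg7-KO and 7.05 ± 1.14 in double mutants, so that Atg7-KO was 2.41-fold above cont. (log2 fold change 1.27, SE 0.33, edgeR adjusted p = 0.0114). Against Atg7-KO, Psph fell by 1.03 on the log2 scale in double mutants (SE 0.32, edgeR adjusted p = 0.0228). The groups did not overlap in either comparison, but the first call was lost without cont. mouse 2 (adjusted p = 0.0538) and the second without any 1 of 4 mice, Atg7-KO 2 or 3 or double mutant 2 or 3 (adjusted p = 0.0522 to 0.0830). Exons of Psph overlap Cct6a on the opposite strand, and the strand setting of the counting is not given in the sources used here, so reads from the overlap cannot be told apart. Of the 75-base stretches of Psph, 8.07% are shared with Cct6a. Cct6a, at 64.8 to 118 normalized CPM, was not called in Atg7-KO against cont. (log2 fold change 0.35, edgeR adjusted p = 0.213).

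Mthfd1l and Mthfd2 rose on the mitochondrial side. Mthfd1l, on chromosome 10 at 3973118 to 4167081 (plus strand), encodes the synthetase that releases formate from mitochondrial folate, and it had the largest fold change of the 8 members tested. Its counts were 12, 7 and 12 in cont., 217, 191 and 203 in Atg7-KO and 33, 11 and 26 in double mutants. The Atg7-KO livers were well apart from the other 6. Normalized CPM went from 0.889 ± 0.372 in cont. to 9.00 ± 1.36 in Atg7-KO, a 10.4-fold rise (log2 fold change 3.37, SE 0.42, edgeR adjusted p = 0.000267), and was 1.61 ± 0.797 in double mutants, 5.58-fold below Atg7-KO (log2 fold change -2.48, SE 0.38, edgeR adjusted p = 0.000687). The double mutant livers overlapped cont., with a log2 difference of 0.89 (SE 0.44, edgeR adjusted p = 0.216).

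Mthfd2, on chromosome 6 at 83305691 to 83325908 (minus strand), encodes the mitochondrial dehydrogenase and cyclohydrolase upstream of MTHFD1L. Its counts were 39, 25 and 11 in cont., 114, 105 and 117 in Atg7-KO and 75, 30 and 25 in double mutants. It was 2.51-fold above cont. in Atg7-KO without overlap (log2 fold change 1.33, SE 0.44, edgeR adjusted p = 0.0332), but leaving out any 1 of 5 mice, cont. 2 or 3 or any Atg7-KO mouse, took the adjusted p to 0.0601 to 0.0969. In double mutants, mouse 1 was at 5.36 normalized CPM, inside the Atg7-KO range of 4.31 to 5.51, and mice 2 and 3 were at 2.10 and 1.63. The difference from Atg7-KO was not called (log2 fold change -0.71, SE 0.42, edgeR adjusted p = 0.182), and without mouse 1 it was -1.40 (edgeR adjusted p = 0.0112). With all mice under total counts it was -1.30 (edgeR adjusted p = 0.0253), where the median of all genes was -0.57. Mthfd2l, the isozyme of Mthfd2, differed by 0.14 on the log2 scale between Atg7-KO and cont. (SE 0.28, edgeR adjusted p = 0.694).

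Aldh1l2, on chromosome 10 at 83487450 to 83534140 (minus strand), encodes the mitochondrial enzyme that oxidizes formyl-tetrahydrofolate to carbon dioxide, and it was too low to be tested with the others. Its counts were 9, 4 and 1 in cont., 21, 6 and 16 in Atg7-KO and 1, 3 and 3 in double mutants. The Atg7-KO and cont. livers overlapped, and all double mutant livers were below the Atg7-KO livers. In an edgeR fit of 19102 genes without the filter, Aldh1l2 was called lower in double mutants against Atg7-KO (log2 fold change -1.98, SE 0.72, adjusted p = 0.0469). It was not called in Atg7-KO against cont. (0.84, adjusted p = 0.369) or in double mutants against cont. (-1.14, adjusted p = 0.464). Its exons overlap D10Wsu102e on the opposite strand, with 12.8% of its 75-base stretches shared, and at 7.03 to 17.8 normalized CPM D10Wsu102e was far above it. D10Wsu102e was not called in any comparison. Its cytosolic relative Aldh1l1, an abundant liver enzyme, was 1201 to 1780 normalized CPM in cont., 544 to 674 in Atg7-KO and 751 to 1114 in double mutants. Aldh1l1 fell by 1.26 on the log2 scale in Atg7-KO (SE 0.24, edgeR adjusted p = 0.00256) and by 0.71 under total-count scaling (adjusted p = 0.0295).

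Shmt2, on chromosome 10 at 127517123 to 127522444 (minus strand), encodes the mitochondrial hydroxymethyltransferase. Its counts were 3761, 3004 and 2547 in cont., 2652, 2849 and 2681 in Atg7-KO and 4695, 3998 and 3980 in double mutants. As normalized CPM it was 260 ± 38.4 in cont., 120 ± 7.36 in Atg7-KO and 292 ± 39.1 in double mutants, and the Atg7-KO livers were below the other 6. Shmt2 was 2.17-fold lower in Atg7-KO than in cont. (log2 fold change -1.12, SE 0.19, edgeR adjusted p = 0.00124) and 2.43-fold higher in double mutants than in Atg7-KO (log2 fold change 1.28, SE 0.19, edgeR adjusted p = 0.000490). Under total-count scaling the difference from cont. was -0.57 (adjusted p = 0.0445), short of the fold threshold, and that from Atg7-KO was 0.70 (adjusted p = 0.0175), still called. Shmt2 shares exon bases with Ndufa4l2 on the opposite strand, which at 1.54 to 5.11 normalized CPM was far below it in counts. Ndufa4l2 was itself called, lower for Atg7-KO against cont. (log2 fold change -1.12, edgeR adjusted p = 0.0224) and higher for double mutants against Atg7-KO (1.01, adjusted p = 0.0282), in the direction of Shmt2.

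Shmt1, on chromosome 11 at 60788104 to 60811718 (minus strand), encodes the cytosolic hydroxymethyltransferase, and its pattern differed from that of Shmt2. It was at 174, 109 and 146 normalized CPM in cont., at 88.4, 85.7 and 81.7 in Atg7-KO and at 57.4, 115 and 60.4 in double mutants. The Atg7-KO livers were below all cont. livers, but the difference missed the threshold (log2 fold change -0.74, SE 0.28, edgeR adjusted p = 0.0551), although it passed by DESeq2 (adjusted p = 0.0369), and under total-count scaling it was -0.15 (adjusted p = 0.612). Its exons overlap those of Smcr8 on the opposite strand, at 31.4 to 55.1 normalized CPM, which was called higher in double mutants than in Atg7-KO (log2 fold change 0.60, edgeR adjusted p = 0.0100). The double mutant livers spanned the Atg7-KO range, with a log2 difference of -0.14 (SE 0.28, edgeR adjusted p = 0.703). Under total counts it was -0.73 (edgeR adjusted p = 0.0274) and called lower. The median of all genes was -0.57 under that scaling, and 44.1% of them were called lower. Relative to Alb in the same library, Shmt1 was 0.189% to 0.329% in cont., 0.314% to 0.336% in Atg7-KO and 0.0771% to 0.135% in double mutants, below both other genotypes. That ratio also holds the change of Alb, which was 1.60 higher (log2, SE 0.32) in double mutants than in Atg7-KO. The log2 difference of Shmt1 itself between double mutants and cont. was -0.88 (SE 0.28, edgeR adjusted p = 0.0743). It passed by DESeq2 (-0.93, adjusted p = 0.0241), under total-count scaling (-0.88, adjusted p = 0.0496) and without double mutant mouse 2 (-1.28, adjusted p = 0.0221).

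Mthfd1, on chromosome 12 at 76255298 to 76319803 (plus strand), encodes the cytosolic trifunctional enzyme, and its exons overlap Gm47525 on the opposite strand. It was at 233, 146 and 177 normalized CPM in cont., at 116, 119 and 119 in Atg7-KO and at 150, 206 and 140 in double mutants. The Atg7-KO livers were the lowest 3, and Mthfd1 was 1.57-fold lower than in cont. (log2 fold change -0.65, SE 0.22, edgeR adjusted p = 0.0348). This call was lost without cont. mouse 1 or 3 or any 1 Atg7-KO mouse (adjusted p = 0.0524 to 0.104) and with mouse number as a replicate block (adjusted p = 0.0634), and under total-count scaling the difference was -0.06 (adjusted p = 0.787). Against Atg7-KO, Mthfd1 was not called in double mutants (log2 fold change 0.48, SE 0.22, edgeR adjusted p = 0.0873).

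**Figure D2:**
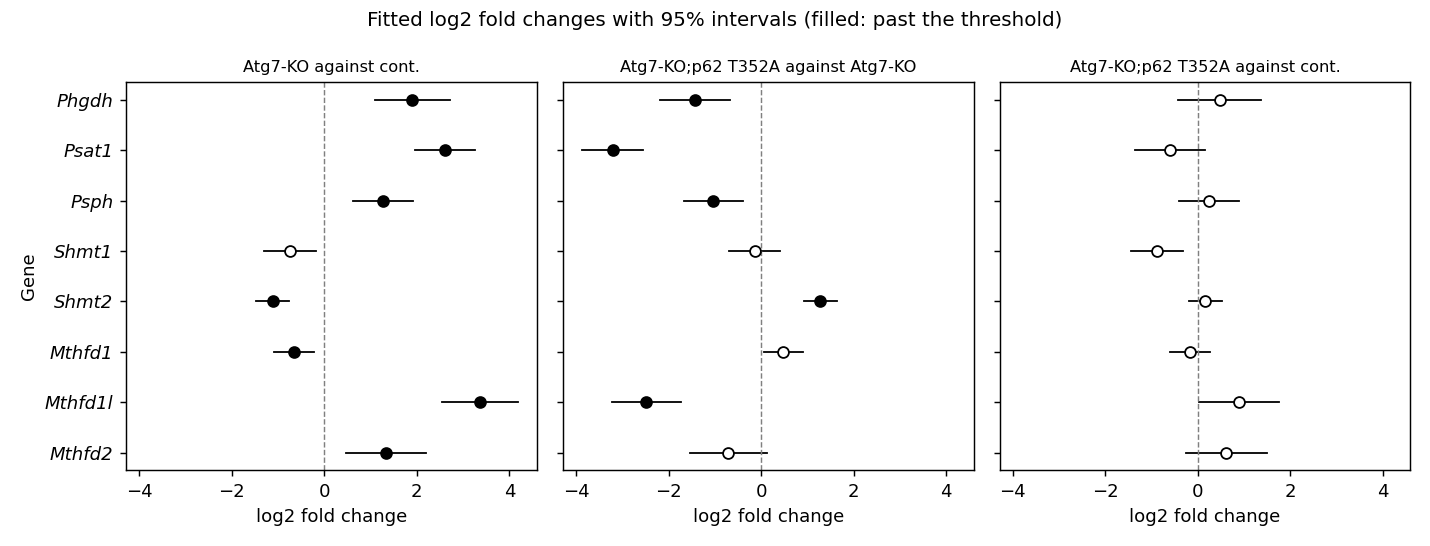
Fitted log2 fold changes (horizontal axis) of the 8 tested genes (vertical axis) in the 3 comparisons. Bars are 95% intervals under a normal approximation, narrower than the edgeR test implies, so a bar can miss 0 without a significant test. Filled points passed an adjusted p under 0.05 and a fold over 1.5. Mthfd1l (3.37) and Psat1 (2.61) lie farthest right for Atg7-KO against cont., Psat1 (-3.21) farthest left for double mutants against Atg7-KO, and no point is filled for double mutants against cont.

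The direction of the 5 members called higher in Atg7-KO was the same under 4 library scalings. These were TMM, DESeq2 size factors, upper quartile and total counts. All 5 were called under total-count scaling, with log2 fold changes of 1.89 for Psph to 3.94 for Mthfd1l. That scaling moved the median of all genes from -0.03 to 0.55, with 42.6% of all genes called higher. It raised the values of these 5 members too, so their calls under it are no further support. For Shmt1, Shmt2 and Mthfd1 the 4 scalings agreed on the sign in Atg7-KO against cont. However, upper quartile left 1 of them called lower and total counts 0, where TMM called 2. Mthfd1 changed sign between scalings in double mutants against Atg7-KO, with 0.48 under TMM and -0.10 under total counts. The median of all genes moved in the same way, from 0.00 to -0.57, so this sign change says nothing particular to Mthfd1. Relative to the median of all genes, the total-count differences between Atg7-KO and cont. were -0.70 for Shmt1, -1.11 for Shmt2 and -0.60 for Mthfd1.

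**Figure D3:**
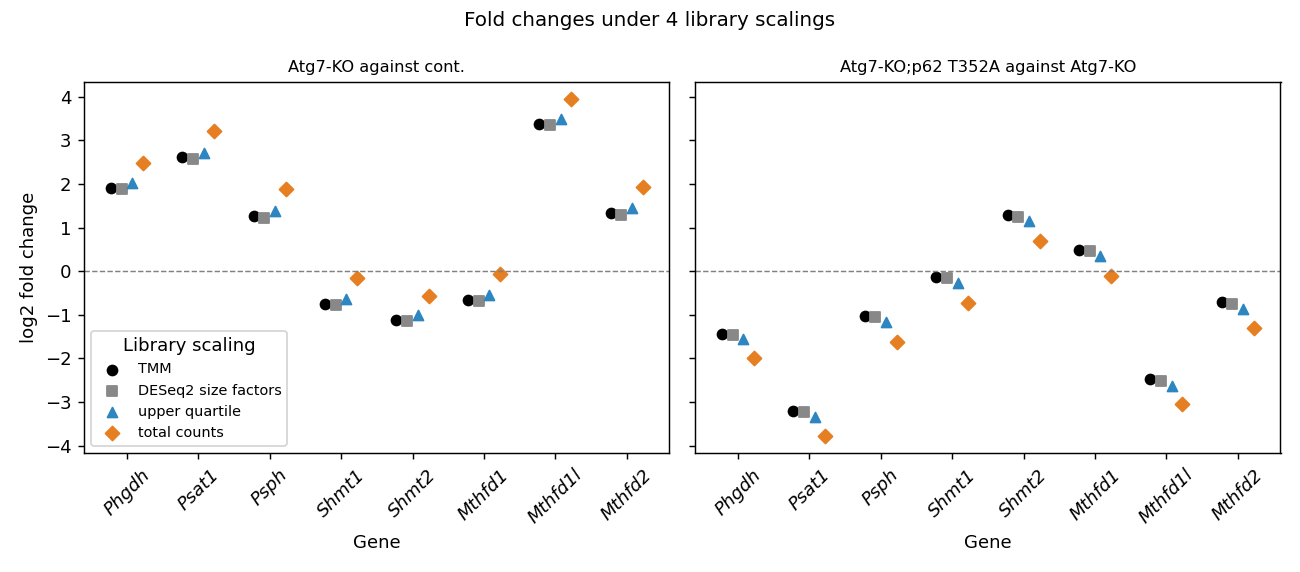
Log2 fold changes (vertical axis) of the 8 tested genes (horizontal axis) for Atg7-KO against cont. (left) and double mutant against Atg7-KO (right) under 4 library scalings, shown by marker shape. Total-count points sit above the others on the left and below them on the right by a similar amount for each gene, and on the right Mthfd1 goes from 0.48 under TMM to -0.10 under total counts.

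Ratios of counts within a library do not depend on library scaling. The ratio of Psat1 to Shmt2 was 0.425%, 0.166% and 0.314% in cont., 3.09%, 3.83% and 5.00% in Atg7-KO and 0.107%, 0.200% and 0.226% in double mutants. Phgdh to Shmt2 was 0.118% to 0.200% in cont., 0.943% to 1.60% in Atg7-KO and 0.128% to 0.327% in double mutants. Both ratios were higher in all Atg7-KO livers than in the other 6, while the other genotypes overlapped. The mitochondrial Mthfd1l relative to the cytosolic Mthfd1 was 0.295%, 0.453% and 0.745% in cont., 9.08%, 6.59% and 7.25% in Atg7-KO and 1.57%, 0.375% and 1.22% in double mutants. Mthfd2 relative to Mthfd2l likewise showed no overlap of Atg7-KO, at 285% to 422%, with cont., at 84.6% to 195%, or with double mutants, at 69.4% to 250%. The double mutant ratio also holds a difference in Mthfd2l, which was at 1.82 to 2.35 normalized CPM there, above Atg7-KO at 1.31 to 1.75 without overlap but not called (log2 fold change 0.53, edgeR adjusted p = 0.117, and -0.04 under total counts), while Mthfd2 itself overlapped. The ratio of Shmt1 to Shmt2 was 80.6%, 38.3% and 52.1% in cont., 68.9%, 73.2% and 71.4% in Atg7-KO and 17.1%, 41.1% and 23.2% in double mutants. All 3 double mutant livers were thus below all Atg7-KO livers, by 1.49 on the log2 scale, and overlapped cont. The 5 pairs were set with the changes of their genes known, so the separations are given as a description, without a test.

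**Figure D4:**
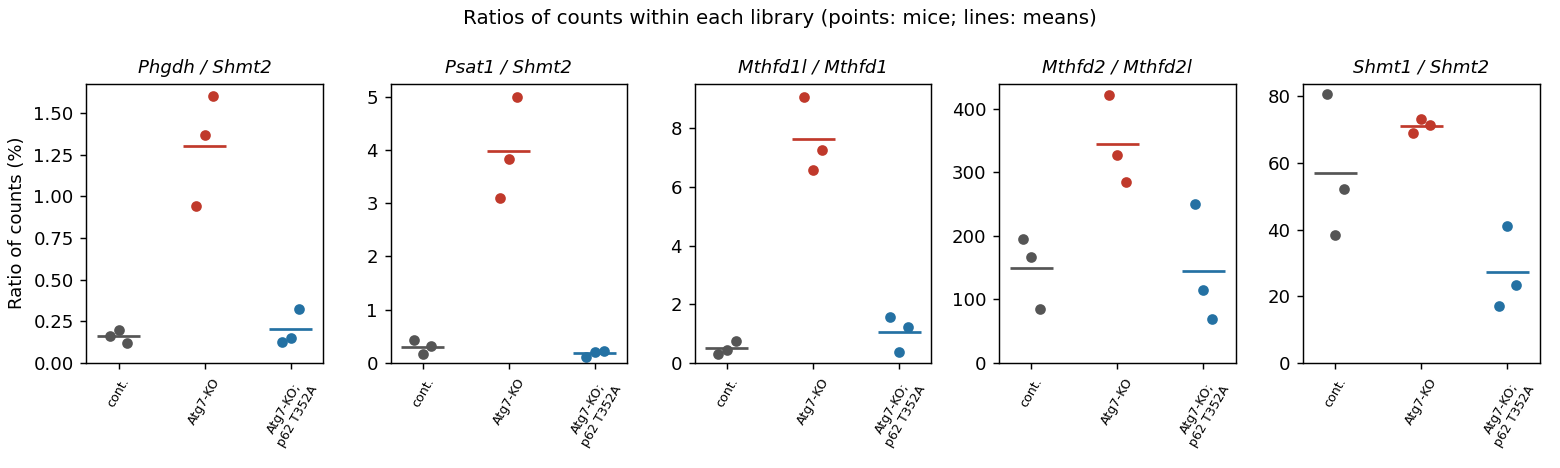
Ratio of the counts of 2 genes within each library in percent (vertical axes, each from 0) by genotype (horizontal axis); points are mice and lines are means. Atg7-KO lies above both other genotypes in the 4 left panels, and in the right panel (Shmt1 to Shmt2) the double mutants lie between 17.1% and 41.1%, below Atg7-KO.

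Levels between genes were compared as TPM, which divides counts by transcript length and is scaled to the library total, so that differences between genotypes follow total-count scaling. In cont. the mean TPM was 194 for Shmt2, 94.6 for Mthfd1 and 82.7 for Shmt1, and then 3.34 for Psph, 1.55 for Mthfd2, 0.478 for Psat1, 0.412 for Mthfd1l, 0.375 for Phgdh and 0.0904 for Aldh1l2. Mthfd1 and Shmt1 overlapped, as did Psph and Mthfd2, and Psat1, Mthfd1l and Phgdh could not be ordered beyond their spread. In Atg7-KO the TPM of Shmt2, Mthfd1 and Shmt1 was 143, 99.3 and 81.3, that of Psph 13.7, of Mthfd1l 6.63, of Mthfd2 6.44, of Psat1 4.93 and of Phgdh 2.24. In double mutants it was 202 for Shmt2, 80.4 for Mthfd1, 42.5 for Shmt1, 3.87 for Psph, 2.28 for Mthfd2, 0.703 for Mthfd1l, 0.490 for Phgdh and 0.308 for Psat1. Every serine synthesis gene was thus below both hydroxymethyltransferases in all 3 genotypes. With median transcript lengths Psph in Atg7-KO was at 28.2 TPM against 84.1 for Shmt1. With median in place of longest transcript lengths, Mthfd1 came before Shmt2 in Atg7-KO. In that genotype Mthfd1l, Mthfd2 and Psat1 also changed places among themselves, with Phgdh below them either way. In cont. and in double mutants Mthfd1l came after Phgdh, and in double mutants after Psat1 as well.

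The other genes of the folate cycle and those that use or move serine were counted from lists drawn up from textbook knowledge. These lists and those of factor targets and cell markers below were chosen with earlier results of these data known. Of 23 other folate genes tested, 2 passed the threshold as higher and 6 as lower in Atg7-KO than in cont. (median log2 fold change -0.36, all genes -0.03), beside 21.6% and 22.1% of all genes, so that the share that fell was near that of all genes. The 6 that fell included Pipox, which oxidizes sarcosine and pipecolate (log2 fold change -2.38, SE 0.21), Fpgs, which adds the glutamate tail that keeps folate in cells (-2.10, SE 0.19), and Ftcd, which feeds the one-carbon unit of histidine into folate (-1.92, SE 0.28). Fpgs went from 192 to 272 normalized CPM in cont. to 48.1 to 54.8 in Atg7-KO. The others were Sardh and Dmgdh, of choline breakdown, and Aldh1l1. The 2 that rose were Folr2, a folate receptor known from macrophages (1.42, SE 0.33), and Atic, which uses formyl-folate for purines (1.21, SE 0.27). In double mutants against Atg7-KO, 9 were called higher and 3 lower, beside 24.7% and 26.2% of all genes, with Fpgs at 2.58, Pipox at 2.35 and Ftcd at 1.87, and Folr2 at -1.97, Atic at -1.38 and the mitochondrial folate carrier Slc25a32 at -0.79. Against cont. 1 of the 23 was called in double mutants, Slc25a32 (-0.68, SE 0.19, edgeR adjusted p = 0.0477), where 5.34% of all genes were lower. Under total-count scaling the Atg7-KO counts became 8 higher and 6 lower with a median of 0.21, against 0.55 for all genes, of which 42.6% were higher and 7.92% lower, and each of the 5 named genes kept its call. In double mutants against Atg7-KO the counts became 4 higher and 8 lower (median -0.06, all genes -0.57), beside 9.64% and 44.1% of all genes, with the calls of all 6 named genes kept, and the Slc25a32 difference from cont. was -0.66 (adjusted p = 0.080), no longer called. Under that scaling 1 of the 23 was instead called higher in double mutants than in cont. and 0 lower, beside 5.06% and 4.96% of all genes.

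Of 19 genes of serine and glycine use and transport, 5 passed the threshold as higher and 7 as lower in Atg7-KO than in cont. (median -0.21), beside 21.6% and 22.1% of all genes. The largest change was in Slc1a4, a plasma membrane carrier of serine, alanine and other neutral amino acids. Slc1a4 was at 4.07 to 7.11 normalized CPM in cont., 149 to 179 in Atg7-KO and 9.11 to 14.7 in double mutants. It was thus 30.1-fold higher in Atg7-KO (log2 fold change 4.91, SE 0.28), and it was called higher in double mutants than in cont. as well (1.05, SE 0.25, edgeR adjusted p = 0.0289). Sptlc2, a subunit of the enzyme that joins serine to palmitoyl-CoA for sphingolipids (1.63, SE 0.20), and Sfxn3, a mitochondrial serine carrier (1.52, SE 0.37), also rose in Atg7-KO. The genes that fell most were Sds, which breaks serine down to pyruvate (fell by 1.96, SE 0.45), Agxt, the peroxisomal aminotransferase that acts on serine and glyoxylate (-1.74, SE 0.30), and Gnmt, which methylates glycine (-1.64, SE 0.31). In double mutants against Atg7-KO, Sds (2.49), Agxt (2.27) and the sideroflexin Sfxn2 (1.76) were called higher, and Slc1a4 (-3.86), Sptlc2 (-1.70) and Sfxn3 (-1.24) lower. Gnmt was at 394 to 590 normalized CPM in double mutants, overlapping Atg7-KO at 407 to 634, and stayed 3.31-fold below cont. (log2 fold change -1.72, SE 0.31). Under total-count scaling 7 passed the threshold as higher and 4 as lower in Atg7-KO (median 0.42), beside 42.6% and 7.92% of all genes, with the sign of all 6 named genes kept. In double mutants against Atg7-KO the list had 6 higher and 5 lower, beside 24.7% and 26.2% of all genes, and 3 and 9 under total counts, beside 9.64% and 44.1%. Against cont. 2 were higher in double mutants, Slc1a4 and Sdsl (1.06, SE 0.25), and 1 lower, beside 6.25% and 5.34% of all genes.

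**Figure D5:**
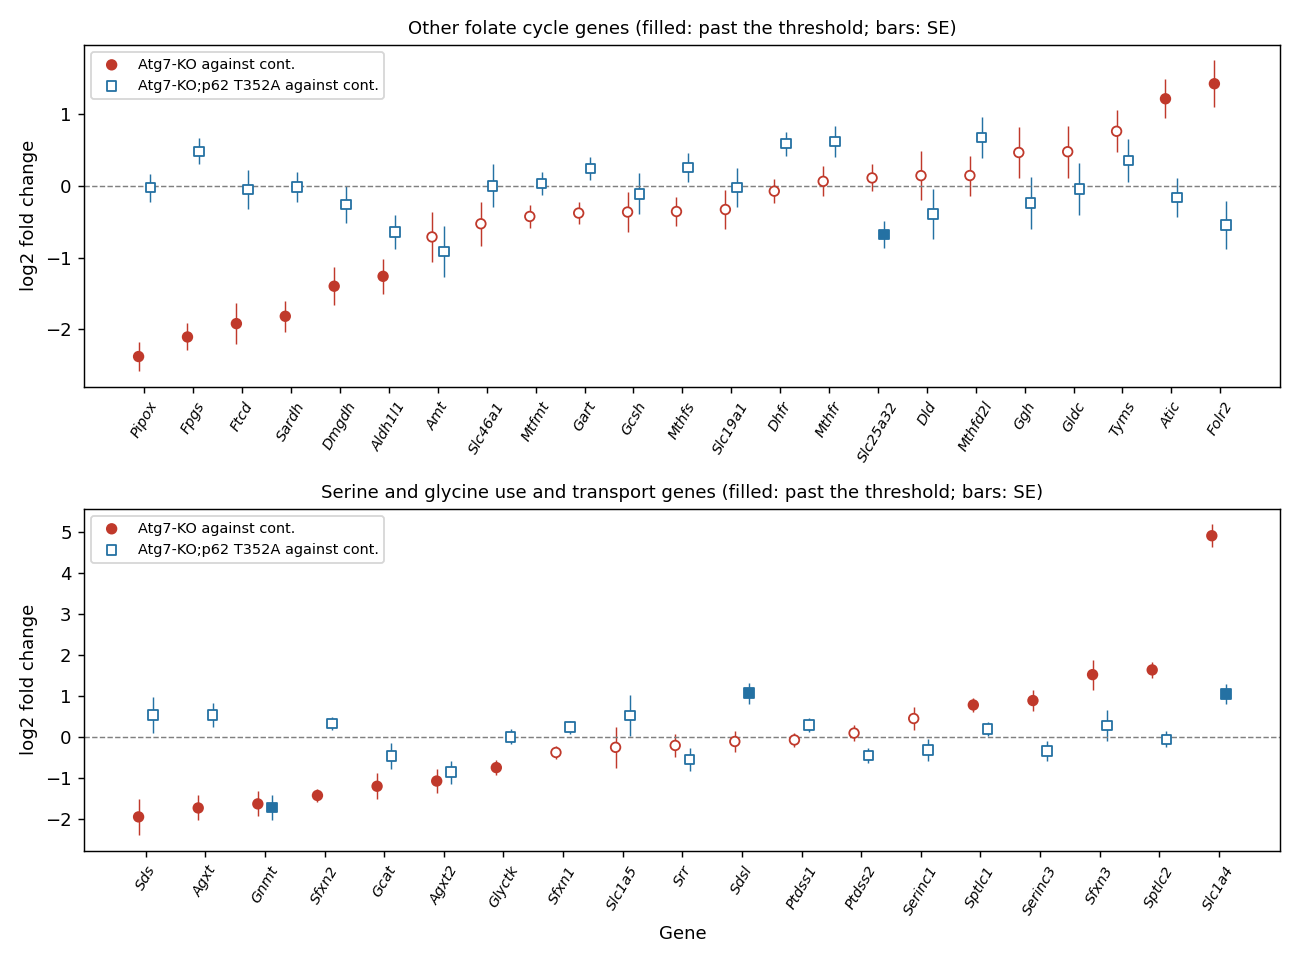
Log2 fold change (vertical axes, bars are SE) of the tested genes (horizontal axes) of the other folate cycle genes (top) and of the serine and glycine use and transport genes (bottom) for Atg7-KO against cont. (circles) and double mutants against cont. (squares); filled points passed the threshold. Of the squares, 1 in the top panel (Slc25a32) and 3 in the bottom panel (Gnmt, Sdsl and Slc1a4) are filled.

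The members were also set beside the targets of the 2 factors known for serine genes elsewhere. A gene placed in 1 of the 2 lists may also answer to the other factor, and which factor acted was not tested. Of 27 genes tested from a list of Atf4 and its known targets, without the members, 8 passed the threshold as higher and 6 as lower in Atg7-KO than in cont., with a median log2 fold change of 0.04, beside 21.6% and 22.1% of all genes, so that the share that fell was near that of all genes. Slc7a11, the cystine importer, rose most (9.19, SE 0.59), from 2 to 11 counts per liver in cont. to 4419 to 7033 in Atg7-KO, followed by the hepatokine Fgf21 (3.55, SE 0.64) and the stress-response gene Sesn2 (1.80, SE 0.20). Atf4 itself, counted among the 6, was lower (-0.61, SE 0.15, edgeR adjusted p = 0.00815), as were Atf5 (-1.00, SE 0.30), Cebpb (-1.31, SE 0.35) and Vldlr (-3.62, SE 0.67). Asns, the asparagine synthetase often read as a marker of ATF4 activity, was not called (-0.79, SE 0.71, edgeR adjusted p = 0.386). Under total-count scaling 14 of the list were called higher and 1 lower, beside 42.6% and 7.92% of all genes, and Atf4, Atf5 and Cebpb were no longer called. In double mutants against Atg7-KO, 5 of the 27 were called higher and 8 lower (median -0.06), beside 24.7% and 26.2% of all genes, and 3 and 10 under total counts, beside 9.64% and 44.1%. Those that fell most were Slc7a11 (-10.18, SE 0.63, with 0 to 6 counts per double mutant liver), Sesn2 (-2.94, SE 0.21) and Fgf21 (-1.64, SE 0.54), and those that rose most were Cebpb (1.82, SE 0.35) and the tRNA synthetase genes Cars (1.5, SE 0.21) and Aars (1.26, SE 0.18). Against cont. 1 was higher in double mutants, Sars (0.64, SE 0.15), and 3 were lower, Vldlr (-2.30, SE 0.63, with overlapping livers), Sesn2 (-1.14, SE 0.21) and Iars (-1.09, SE 0.27), beside 6.25% and 5.34% of all genes. Under total counts Vldlr was no longer called (-2.38, adjusted p = 0.0612). Atf4, counted among the 5, was called higher in double mutants than in Atg7-KO (1.00, SE 0.15, edgeR adjusted p = 0.000557), but not under total counts (0.43, adjusted p = 0.0299, short of the fold threshold). Of 20 genes from a list of Nfe2l2, which encodes NRF2, and its known targets, 18 passed the threshold as higher and 0 as lower in Atg7-KO (median 2.15), beside 21.6% and 22.1% of all genes, and 19 lower and 0 higher in double mutants against Atg7-KO (median -2.05), beside 26.2% and 24.7%. The largest changes were in Gsta1, a glutathione transferase gene with a close paralog whose reads may not be separable (6.88 in Atg7-KO against cont. and -4.54 in double mutants against Atg7-KO), Abcc4, an export pump (5.75 and -6.22), and Srxn1, which encodes sulfiredoxin (5.21 and -4.72). Nqo1 was at 6.36 to 12.2 normalized CPM in cont., 175 to 249 in Atg7-KO and 11.7 to 18.4 in double mutants. Sqstm1 rose by 1.24 (SE 0.22) and Nfe2l2 was not called (-0.60, SE 0.43, edgeR adjusted p = 0.283), nor was it in double mutants against Atg7-KO, where it was the only gene of the list not called (0.0020, adjusted p = 0.997).

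Markers of cell types moved with the genotypes, and the counts given for Atg7-KO against cont. stand beside 21.6% of all genes called higher and 22.1% lower. Whole liver RNA was measured, so that fewer cells of a type and less RNA per cell cannot be told apart. Of 10 hepatocyte markers, 8 were called lower and 0 higher in Atg7-KO than in cont., with a summed normalized CPM of 86765 to 150940 in cont., 40763 to 43750 in Atg7-KO and 117280 to 137470 in double mutants, and Alb, the most abundant, was present in every liver. Proliferation genes rose (9 of 10 higher, Tk1 lower), with sums of 81.7 to 199 in cont., 265 to 363 in Atg7-KO and 68.3 to 98.8 in double mutants. Tk1 was the most abundant of them in double mutants and in cont. mice 2 and 3, where it made 78.6 of 116 and 152 of 199, and Pcna in the other livers. Against cont. 4 of the 10 were called higher in double mutants and 0 lower (median log2 fold change 0.88), beside 6.25% and 5.34% of all genes. The 4 were Top2a, Ccna2, Cdk1 and Rrm2. Under total counts 2 of the 10 were higher, beside 5.06% of all genes. Macrophage markers (6 of 8 higher, most abundant Lyz2 in Atg7-KO and Clec4f in the other 6 livers) summed to 289 to 424, 1107 to 1178 and 196 to 396 in the same order. Stellate cell markers (7 of 8 higher, most abundant Col3a1 in Atg7-KO mice 2 and 3 and Dcn in the other livers) summed to 215 to 272, 905 to 1101 and 337 to 605. Cholangiocyte markers (5 of 6 higher, most abundant Spp1) summed to 33.5 to 51.4, 833 to 1025 and 181 to 266. Lymphocyte markers (3 of 7 higher, 0 lower, most abundant Ptprc, which marks all leukocytes) summed to 14.6 to 32.9, 60.7 to 68.2 and 23.2 to 26.8, and endothelial markers (3 of 6 higher, Stab2 lower, most abundant Clec4g or Stab2) to 254 to 318, 259 to 270 and 134 to 165. The only marker with 0 counts in any liver was the cholangiocyte marker Cldn4 in cont. mouse 3. In double mutants against cont., 3 of 6 cholangiocyte and 3 of 8 stellate markers were called higher and 0 lower. Lower were 4 of 6 endothelial and 1 of 10 hepatocyte markers, with 0 higher. No macrophage or lymphocyte marker was called, beside 6.25% and 5.34% of all genes. Under total counts 3 cholangiocyte and 2 stellate markers were higher and 3 endothelial and 2 hepatocyte markers lower, beside 5.06% and 4.96% of all genes. The part of these cell types in the member values was not tested. As a ratio to Alb, Shmt2 was 0.235%, 0.552% and 0.631% in cont., 0.487%, 0.429% and 0.464% in Atg7-KO and 0.450%, 0.330% and 0.333% in double mutants, so that Atg7-KO lay inside the cont. range. Mthfd1 to Alb was 0.254% to 0.399% in cont. and 0.436% to 0.484% in Atg7-KO, above cont., and 0.179% to 0.242% in double mutants. These ratios also hold the change of Alb itself. It was -1.26 (log2, SE 0.32) in Atg7-KO against cont. and 1.60 (SE 0.32) in double mutants against Atg7-KO.

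Across the 9 livers, the genes whose log2 CPM followed each member most closely are given as a description, since the livers share 3 genotypes and any gene set apart in Atg7-KO will rank high. For Phgdh they were Spdl1 (r = 0.988), Treml2 and Adap1, for Psat1 Elmo1 (0.991), Lama2 and Cd86, and for Psph Grb2 (0.988), Rom1 and Pigf. For Mthfd1l they were Samd4 (0.991), Cx3cl1 and Pls1, and for Mthfd2 Tmc5 (0.925), Serpina7 and 1700024P16Rik. For Shmt2 they were Mospd3 (0.992), Mapk15 and Gtf2a1, for Shmt1 Mccc1 (0.988), Gm5424 and Yif1a, and for Mthfd1 1110008L16Rik (0.985), Gcat and Fads1. Members were left out of that search. Between 2 members the highest r was 0.864, for Phgdh and Mthfd1l, below that of every gene named here (lowest 0.921).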

How the data were processed

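Poly(A) RNA from whole liver was sequenced as 75-base single-end reads. The authors mapped reads to mm10 with STAR and counted them per gene with RSEM, as the study describes, and deposited expected counts for each mouse. The submitters' processing notes also name Trim Galore, a read trimmer. The annotation, tool versions and strand setting are not given in the sources used here. The expected counts, of which 8.34% were not whole, were rounded. Genes with low counts were removed (filterByExpr, minimum count 10, a cutoff of 0.609 CPM), which left 13922 of 24411 genes, and all 3 genotypes entered a single fit with edgeR 4.0.16 (TMM, quasi-likelihood test, Benjamini-Hochberg adjustment). A gene was called at an adjusted p under 0.05 and a fold change over 1.5, as in the study, where DESeq2 was used (here DESeq2 1.42.0 was an alternative). The script was tested on simulated data. TPM used the longest GENCODE vM21 transcript, with lengths for 95.76% of genes. Group mates are separate mice, and depth is given as total counts. Precision is limited for Phgdh, Psat1, Mthfd1l, Mthfd2 and Aldh1l2 by their few counts. Besides the 9 members, the genes named from each list were, per comparison, the 3 largest rises and falls among called genes whose CPM averaged 1 or more and whose mice did not overlap, with Mthfd2l, Aldh1l1, Atf4, Atf5, Asns, Fgf21, Nfe2l2, Nqo1 and Sqstm1 always named. Sardh, Dmgdh, the cell type and proliferation markers and the genes overlapping members were named after their values were seen. The members and gene lists were chosen with earlier results of these data known. Alternatives were other normalizations, filters and tests, mouse number terms and leaving out mice. Scaling by total counts was added after seeing the data.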

Additional observations from a re-analysis of the deposited data

How the results depend on the processing

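Of 495 refitted member values, 450 kept their direction and their side of the threshold, 26 fell short of it, 10 passed it newly and 9 changed sign. Psat1, Mthfd1l and Shmt2 kept their calls in both comparisons with Atg7-KO whichever mouse was left out. For Psat1 this is no independent support, since it passed the filter only through the Atg7-KO livers. Of the members higher in Atg7-KO than in cont., 2 were called when at least 10 counts were asked of every mouse, where 5 of the members were tested, and 3 to 5 when a mouse was left out, beside 19.2% and 16.8% to 28% of all genes. Those lower were 1 under upper-quartile scaling, without the filter, with at least 10 counts, with a replicate block for mouse number, without the mice numbered 1 and with glmTreat, 0 under total-count scaling, and 1 to 3 when a mouse was left out, beside 18.5%, 16.1%, 20.8%, 19.9%, 27.3%, 12.3%, 7.92% and 15.2% to 28% of all genes in the same order. In Atg7-KO;p62 T352A livers (double mutants) against Atg7-KO, those lower were 1 with at least 10 counts, 6 under total-count scaling and 2 to 5 when a mouse was left out, beside 24.5%, 44.1% and 21.2% to 29.1% of all genes. Against cont., those lower were 1 with DESeq2 and under total-count scaling, and 0 to 1 when a mouse was left out, beside 4.85% (of all 24411 genes), 4.96% and 1.35% to 12.2%. Signs changed in double mutants against Atg7-KO for Shmt1 (0.0685 without the mice numbered 1, and -0.53 to 0.0446 when a mouse was left out, above 0 without double mutant mouse 1 or 3) and Mthfd1 (-0.10 under total-count scaling, where the median of all genes was -0.57). Against cont. they changed for Psph (-0.0711 to 0.63 when a mouse was left out, below 0 without cont. mouse 3), Shmt2 (-0.0620 without the mice numbered 1), Mthfd1 (0.10 without the mice numbered 1, and -0.39 to 0.0316 when a mouse was left out, above 0 without cont. mouse 1) and Mthfd2 (-0.0737 to 0.92 when a mouse was left out, below 0 without double mutant mouse 1). The cause was not tested. None of these values was past the threshold. The mouse numbers were not taken as pairs, since not every pair of same-numbered mice correlated over 0.1 in its deviations: the pairs numbered 1 were at 0.14 to 0.27, those numbered 3 at 0.18 to 0.32, but those numbered 2 at -0.20 to 0.09 (mean of 9 pairs 0.15, other pairs -0.07). With the replicate block, Mthfd1 in Atg7-KO against cont. was -0.65 with an edgeR adjusted p of 0.0634, and no other member call changed. The number of all genes called in double mutants against cont. was 1613, from 253 with glmTreat to 3245 without cont. mouse 1, so the background for that comparison is uncertain. Depth limited Aldh1l2 most, with 1 to 21 counts per liver.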
